A study of Mus musculus with 16 samples.

Results

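Trace amine-associated receptors form a small family of olfactory receptors that is separate from the large odorant receptor family. Described here are 6 of its mouse genes, Taar2, Taar3, Taar4, Taar5, Taar6 and Taar9. They were taken as the probe sets whose annotated symbol is one of these names, and each gene had 1, so they make up 6 of the 22206 non-control probe sets on the array. Of 15 Taar genes measured, the other 9 are Taar1 and the Taar7 and Taar8 genes.

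All mice carried S100a5-tauGFP, a reporter in which the S100a5 gene drives a green fluorescent protein. S100a5 encodes a calcium-binding protein of olfactory sensory neurons whose level follows their activity, so the reporter marks such neurons whichever receptor they use. The 24 mice were of both sexes and 7 to 12 weeks old. Each stayed alone for 40 h in a chamber with clean air flowing at 3.1 L per min, and from 26 h it received pulses of 10 s every 20 min of 2-hexanone, a small ketone, in the odor groups or of filtered air in the vehicle groups. Olfactory mucosa of 3 mice was pooled, dissociated and sorted, and the 8 pools gave 4 groups of 4 arrays: odor GFP+, odor GFP-, vehicle GFP+ and vehicle GFP-. The GFP+ and GFP- samples of a pool come from the same mice. The values are deposited log2 signals on Clariom S mouse arrays, and they reach 19.81, above the 16 bits of a scanner. An unstated transformation therefore acts on every difference and fold given here.

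Taar receptors are G protein-coupled receptors related to the receptors for biogenic amines. Apart from Taar1, the mouse genes are transcribed in olfactory sensory neurons, where a neuron typically uses a single receptor gene and signals through the same olfactory G protein, adenylyl cyclase and ion channels as neurons with odorant receptors. Many Taar neurons lie in the dorsal part of the epithelium and send axons to a cluster of dorsal glomeruli, and the receptors are known for detecting volatile amines such as those of urine and predator odors. In mice, Taar3 responds to isoamylamine, Taar4 to 2-phenylethylamine and Taar5 to trimethylamine. 2-Hexanone is a ketone and carries no amine group.

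The Taar genes sit side by side in 1 cluster on chromosome 10. To show how far the genes differ where their coding sequence begins, the first 50 bases from the annotated start codon are given for 4 of the 5 members that the RefSeq table for build GRCm38.p6 holds; Taar4 is named only. The windows are genomic, and that of Taar2 is not shown: its 15th codon is a stop in frame, and the annotated gene spans 3012 bases, against 1014 to 1047 for the genes shown, so the window is not coding throughout. The others are read 5′ to 3′ on the strand of each gene: Taar3 at chr10:23949558-23949607 (+), Taar5 at chr10:23970706-23970755 (+), Taar6 at chr10:23985597-23985646 (-) and Taar9 at chr10:24109485-24109534 (-). Capitals mark the longest run that Taar6 and Taar9 share within the windows.
Taar3: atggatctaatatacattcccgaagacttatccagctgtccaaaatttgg
Taar5: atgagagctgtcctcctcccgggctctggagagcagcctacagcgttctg
Taar6: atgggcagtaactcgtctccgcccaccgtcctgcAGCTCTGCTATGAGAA
Taar9: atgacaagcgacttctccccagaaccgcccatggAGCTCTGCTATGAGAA
This run fills bases 35 to 50 of both windows, so it is at least 16 bases long and may go on past them. Within the windows, the other pairs among the 6 pairs of these 4 genes shared runs of at most 8 bases. The run occurs in 3 windows of the table (0.00913%), those of Taar6, Taar9 and Taar8b. Of this pair, Taar9 differed between the sorted fractions and Taar6 did not pass, with values given after the checks.

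The sort and the libraries were checked first. S100a5, the gene behind the reporter, was higher in GFP+ than in GFP- cells by 1.61 ± 0.25 in odor and 1.38 ± 0.25 in vehicle (log2 difference ± SE, adjusted p = 9.83e-05 and 0.000514). Omp, the marker of mature olfactory neurons, averaged 19.45 in odor GFP+ and 19.36 in odor GFP- samples. These values lie near the highest value of the arrays, and the difference did not pass (adjusted p = 0.733). Of 10 mature neuron markers, Omp among them, 1 was higher in GFP+ cells in odor and 2 in vehicle, and 0 were lower. Ano2 was higher in both treatments (0.68 and 0.64, adjusted p = 0.012 and 0.0175). Over all probe sets, 5.29% were higher and 9.56% lower in odor, and 5.83% and 9.86% in vehicle. The 1 of 10 in odor thus lay little above the share over all probe sets. The fractions also differed in other cells. In both treatments GFP+ cells had less of all 11 measured immune markers, and their mean level per array was 5.07 to 5.46 in odor GFP+ against 12.76 to 13.39 in odor GFP- samples, and 4.84 to 5.43 in vehicle GFP+ against 11.46 to 13.97 in vehicle GFP- samples. Of 10 immature neuron markers, 5 were lower in odor and 6 in vehicle, and lower in both were 5 of 8 basal and progenitor, 7 of 10 sustentacular and 8 of 8 microvillous markers. The part of these cells in the results below was not tested, and in such bulk samples fewer cells of a type and less RNA per cell cannot be told apart. Unless stated otherwise, tests are limma with Benjamini-Hochberg adjustment over all 22206 probe sets, and a difference passed at adjusted p below 0.05.

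In the odor pools, the 6 receptors went in different directions between the sorted fractions. Taar4 and Taar9 were higher in GFP+ cells, Taar2 was lower, and Taar3, Taar5 and Taar6 did not pass in the fit without a block for the pool; with that block, random or fixed, Taar3 and the dim Taar5 passed and 4 of 6 were higher. Without it, that is 2 of 6 higher, where 5.29% of all probe sets were higher, and 1 of 6 lower, where 9.56% were lower (14.9% in either direction). The median log2 difference of the 6 was 1.15, against 0.14 over all probe sets and 0.48 over 1080 odorant receptors. In the vehicle pools Taar4, Taar9 and the dim Taar5 were higher (3 of 6, with 5.83% of all probe sets higher) and Taar2 was lower (1 of 6, with 9.86% lower and 15.7% in either direction), with a median of 1.40, against 0.14 over all probe sets and 0.41 over the odorant receptors. With arrays centred on their medians, 4 of 6 members were higher in odor and 38.4% of all probe sets were, and 4 of 6 and 40.5% in vehicle, with 1 of 6 members lower in each. Both medians of the 6 rest in part on Taar5, which lay under background; with values raised to the background floor they were 0.79 in odor and 0.60 in vehicle, and without Taar5 1.59 and 1.30.

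Taar9, the last gene of the cluster, had clearly higher signals in GFP+ cells. It stood at 12.85, 12.35, 12.23 and 10.75 in odor GFP+ replicates 1 to 4, against 9.76, 8.80, 9.48 and 8.26 in odor GFP- replicates 1 to 4 (12.04 ± 0.90 and 9.08 ± 0.68, SD, n = 4). In vehicle it stood at 13.11, 12.94, 11.94 and 12.55 in GFP+ replicates, against 9.79, 10.08, 9.43 and 7.62 in GFP- replicates (12.64 ± 0.52 and 9.23 ± 1.10). Every GFP+ array lay above every GFP- array in both treatments, and replicate 4 was the lowest array of 3 of the 4 groups. The difference was 7.83-fold in odor (log2 2.97 ± 0.50 SE, adjusted p = 0.000271) and 10.6-fold in vehicle (3.41 ± 0.50, adjusted p = 6.25e-05). The pools themselves ranged from 2.50 to 3.55 in odor and from 2.52 to 4.93 in vehicle, where the largest value, from replicate 4, came with the lowest GFP- array. Its order of group means was vehicle GFP+, odor GFP+, vehicle GFP- and odor GFP-, and within a fraction the odor and vehicle arrays overlapped.

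Taar4, the 2-phenylethylamine receptor, had the same order of group means. Odor GFP+ replicates 1 to 4 had 9.98, 10.45, 10.24 and 8.86, against 6.73, 6.78, 6.60 and 6.49 in odor GFP- replicates (9.88 ± 0.71 and 6.65 ± 0.13, SD, n = 4). Vehicle GFP+ replicates had 10.25, 10.80, 10.16 and 10.23, against 8.19, 7.42, 7.33 and 6.54 in vehicle GFP- replicates (10.36 ± 0.29 and 7.37 ± 0.68). The fractions did not overlap in either treatment. Taar4 was 9.40-fold higher in GFP+ cells in odor (3.23 ± 0.33, adjusted p = 7.01e-07) and 7.95-fold higher in vehicle (2.99 ± 0.33, adjusted p = 1.91e-06). Only 2 of the 4 odor GFP- arrays lay above their background floor, the highest of 23 background bins on an array, and with the other arrays raised to it the odor difference was 8.70-fold.

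Taar2 was lower in GFP+ cells. Odor GFP+ replicates 1 to 4 had 7.56, 7.44, 6.93 and 6.003, against 9.42, 10.03, 9.29 and 9.28 in odor GFP- replicates (6.98 ± 0.71 and 9.50 ± 0.36, SD, n = 4). Vehicle GFP+ replicates had 7.31, 7.35, 7.72 and 6.62, against 9.46, 10.19, 9.77 and 9.27 in vehicle GFP- replicates (7.25 ± 0.46 and 9.67 ± 0.40). The GFP+ arrays all lay under the GFP- arrays in both treatments, and odor GFP+ replicate 4 lay under its background floor. Taar2 was 5.74-fold lower in GFP+ cells in odor (-2.52 ± 0.32, adjusted p = 1.08e-05; 5.36-fold with that array raised to its floor) and 5.37-fold lower in vehicle (-2.43 ± 0.32, adjusted p = 1.72e-05). All 8 pool differences were below 0, from -3.27 to -1.86 in odor and from -2.84 to -2.06 in vehicle.

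**Figure D1:**
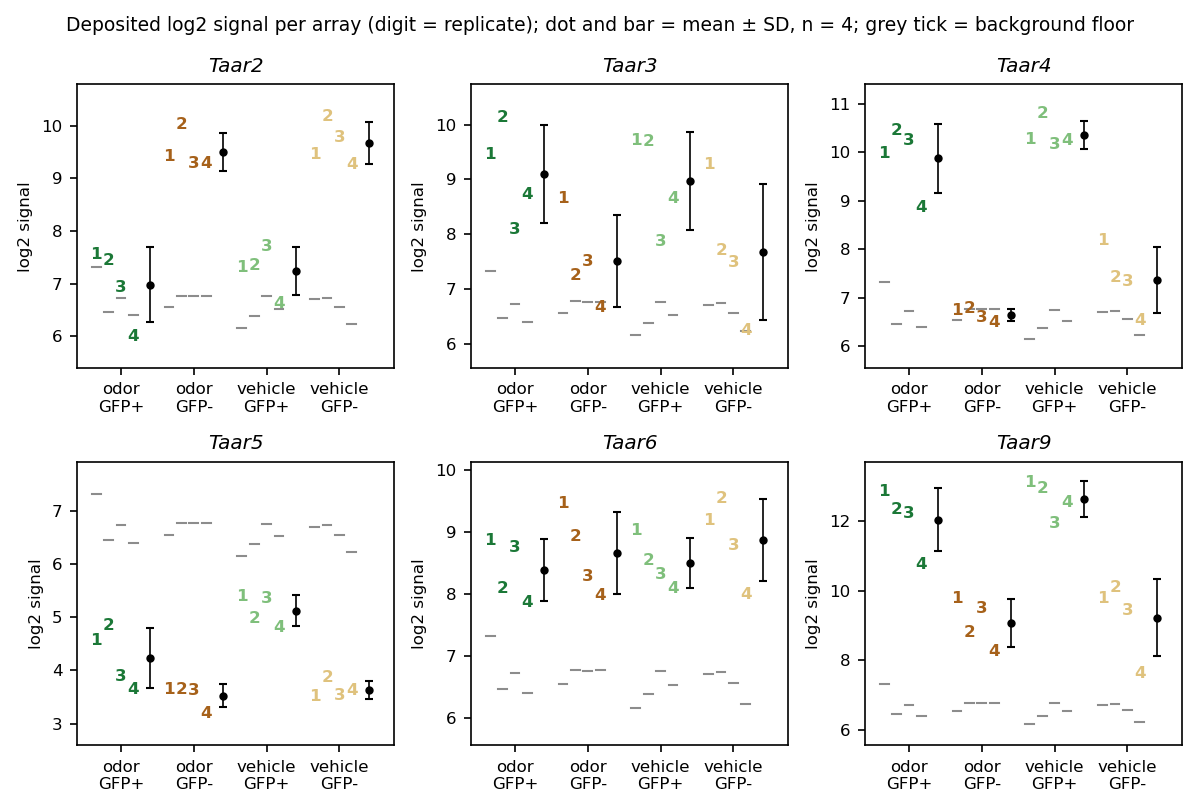
Deposited log2 signal (y axis) of the 6 receptors on each of the 16 arrays. Coloured digits are the replicate numbers, dots with bars the mean ± SD of 4 arrays, and grey ticks the background floor of each array. Taar4 and Taar9 stand higher in both GFP+ groups, Taar2 stands lower there, and Taar5 lies under the floor on all 16 arrays.

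Taar3, the isoamylamine receptor, did not pass over all arrays, although the GFP+ sample of each pool lay above its GFP- sample. It had 9.45, 10.13, 8.08 and 8.72 in odor GFP+ replicates 1 to 4, against 8.64, 7.25, 7.50 and 6.65 in odor GFP- replicates (9.10 ± 0.89 and 7.51 ± 0.83, SD, n = 4). It had 9.71, 9.69, 7.86 and 8.64 in vehicle GFP+ replicates, against 9.27, 7.70, 7.48 and 6.24 in vehicle GFP- replicates (8.98 ± 0.90 and 7.67 ± 1.25). The fractions overlapped in both treatments; replicate 1 was the highest GFP- array of each, and replicate 3 the lowest GFP+ array of each. GFP+ exceeded GFP- within all 4 pools of each treatment, by 0.59 to 2.89 in odor and by 0.37 to 2.41 in vehicle. The difference of 1.59 ± 0.59 in odor had an adjusted p of 0.0829, and that of 1.30 ± 0.59 in vehicle an adjusted p of 0.158. With the pool as a block, which uses the shared mice, the odor difference passed (adjusted p = 0.0428 as a random block and 0.0233 as a fixed term).

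For Taar6 no difference between the fractions passed. It stood at 8.87, 8.09, 8.75 and 7.86 in odor GFP+ replicates 1 to 4, against 9.46, 8.93, 8.29 and 7.97 in odor GFP- replicates (8.39 ± 0.50 and 8.66 ± 0.66, SD, n = 4). It stood at 9.04, 8.54, 8.32 and 8.09 in vehicle GFP+ replicates, against 9.20, 9.54, 8.79 and 8.002 in vehicle GFP- replicates (8.50 ± 0.40 and 8.88 ± 0.66). The groups overlapped in both treatments, and GFP+ was above GFP- in 1 of 4 pools of each. The differences were -0.27 (95% interval -1.02 to 0.48, adjusted p = 0.683; 0.080 with arrays centred on their medians) in odor and -0.39 (-1.14 to 0.36, adjusted p = 0.527) in vehicle, so these intervals include a level in GFP+ cells lower by 1 log2 unit.

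Taar5, the trimethylamine receptor, lay under the background floor on all 16 arrays, so no fold is given. It had 4.57, 4.85, 3.88 and 3.65 in odor GFP+ replicates 1 to 4, against 3.64, 3.64, 3.62 and 3.20 in odor GFP- replicates (4.24 ± 0.56 and 3.52 ± 0.22, SD, n = 4). It had 5.39, 4.97, 5.35 and 4.80 in vehicle GFP+ replicates, against 3.52, 3.87, 3.54 and 3.62 in vehicle GFP- replicates (5.13 ± 0.29 and 3.64 ± 0.16). The GFP+ arrays did not overlap the GFP- arrays in either treatment, though all were dim. In odor the margin was narrow, with the lowest GFP+ array at 3.651 and the highest GFP- array at 3.641. The difference passed in vehicle (1.49 ± 0.24, adjusted p = 0.000157) and not in odor (0.71 ± 0.24, adjusted p = 0.0545), where a block for the pool let it pass (adjusted p = 0.0283 random and 0.0387 fixed). Raising all values to the floor turned the vehicle difference to -0.098.

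**Figure D2:**
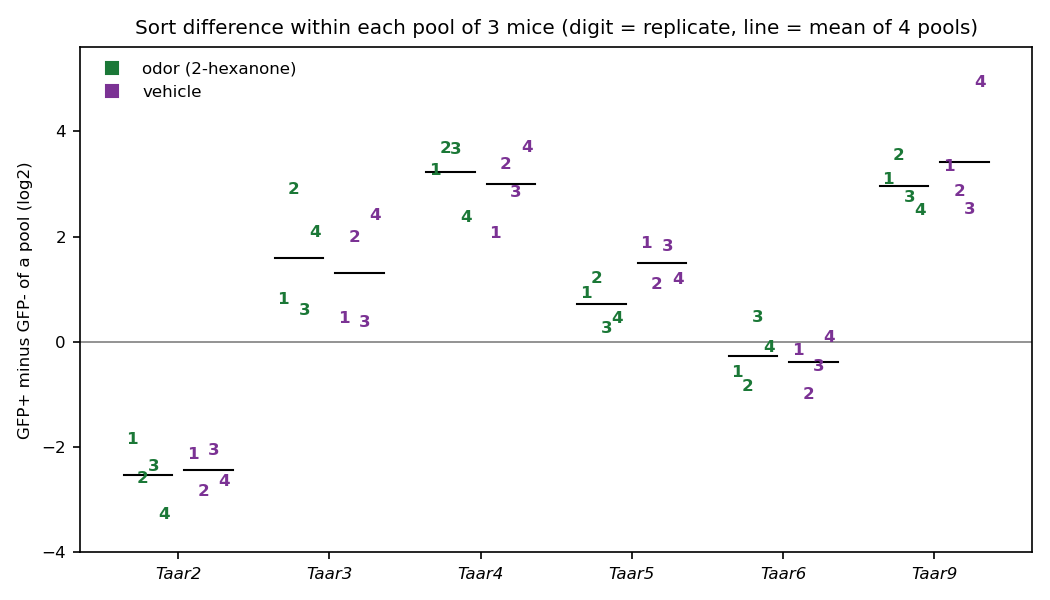
Log2 difference between the GFP+ and GFP- samples of the same 3 mice for each receptor (y axis), with odor pools left of vehicle pools, digits for replicates and lines for the mean of 4 pools. Taar4 and Taar9 were above 2 in all 8 pools, Taar2 was at -1.86 or lower in all 8, and Taar6 lay on both sides of 0.

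Without overlap of the fractions, 3 of 6 receptors (Taar4, Taar9 and Taar5, the last under background on every array) were higher and 1 of 6 (Taar2) lower in each treatment, where 9.4% and 10.6% of all probe sets did so in odor and 9.01% and 10% in vehicle. For Taar5 in odor the fractions were apart by a narrow margin only (3.651 against 3.641). The odorant receptors gave a scale for these differences. Among 1080 of them the sorted fractions also differed in both directions, with more of 391 and less of 235 in GFP+ cells in odor (36.2% and 21.8%) and more of 389 and less of 239 in vehicle (36.0% and 22.1%). The Taar genes fell within that spread. Of the odorant receptors, 92.4% had a smaller difference than Taar4 in odor and 92.4% in vehicle, 90.7% and 94.9% a smaller one than Taar9, and 71.2% and 68.0% a smaller one than Taar3. For Taar6 it was 33.3% and 31.3%, and for Taar2 12.7% and 13.7%.

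**Figure D3:**
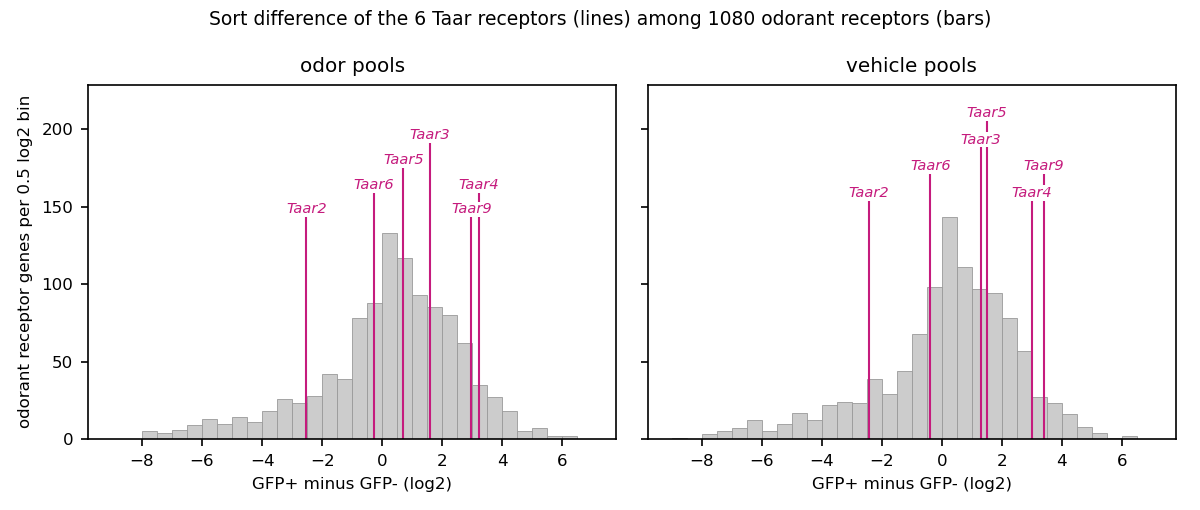
Log2 difference, GFP+ minus GFP- (x axis), of 1080 odorant receptors as counts per bin of 0.5 (bars) with the 6 Taar receptors as lines, odor left and vehicle right. Taar4 and Taar9 lie in the upper tail and Taar2 in the lower tail of the odorant receptors in both treatments.

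The other 9 Taar genes were mixed as well: 2 of 9 were higher and 1 lower in odor, and 3 of 9 were higher and 1 lower in vehicle. Of all probe sets, 5.29% were higher and 9.56% lower in odor, and 5.83% and 9.86% in vehicle. Of the odorant receptors, 36.2% were higher and 21.8% lower in odor, and 36.0% and 22.1% in vehicle. Taar7b was higher by 2.41 ± 0.55 in odor and 1.82 ± 0.55 in vehicle (adjusted p = 0.00467 and 0.0309), and Taar7e by 1.45 ± 0.39 and 1.74 ± 0.39 (adjusted p = 0.0144 and 0.00349). Taar7f was lower, with differences of -1.23 ± 0.35 and -1.16 ± 0.35 (adjusted p = 0.0224 and 0.0306). Leaving out single pools ended the Taar7b call (odor replicate 3, 1.95; vehicle replicate 2, 3 or 4, 1.55 to 1.94), the Taar7e call in odor (replicate 2 or 3, 1.40 to 1.46) and the Taar7f calls (replicate 2 or 4 of either treatment, -0.94 to -1.09). Along the cluster, genes of both directions were mixed: the order is Taar2 (lower in GFP+ cells), Taar4, Taar7b and Taar7e (higher), Taar7f (lower) and Taar9 (higher), with Taar5 and Taar8a also higher in vehicle, both under the mean background floor. Of 6 genes flanking the cluster, Moxd1, a copper-dependent monooxygenase relative, was lower in GFP+ cells. Its difference was -1.77 ± 0.29 in odor and -2.04 ± 0.29 in vehicle (adjusted p = 0.000161 and 3.44e-05). Its GFP+ means, 6.03 in odor and 5.53 in vehicle, lay under the mean background floor of 6.61. The smallest Moxd1 difference under the alternative settings was -1.07 in odor and -1.11 in vehicle, and its calls held. Stx7, a syntaxin of endosomes and the nearest gene beyond Taar9, did not pass (-0.16 and 0.028; adjusted p = 0.614 and 0.942), nor did the other 4.

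**Figure D4:**
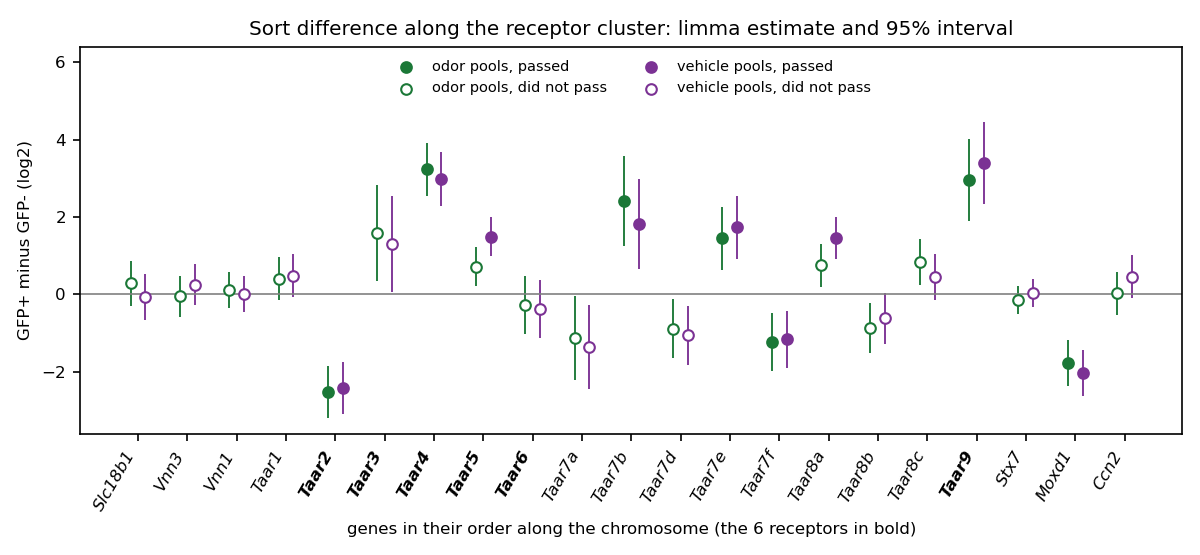
Log2 difference, GFP+ minus GFP- with its 95% interval (y axis), of the Taar genes and their flanking genes in their order along the chromosome, for odor and vehicle pools, with filled points for differences that passed and open points for the rest. Receptors above and below 0 are mixed along the cluster, and Moxd1 is the flanking gene with a large negative difference.

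Genes that act with these receptors were followed by lists. In the olfactory transduction list GFP+ cells had more of 4 of 18 measured genes and less of 1 in odor (median difference 0.38), and more of 5 and less of 1 in vehicle (median 0.29). Over all probe sets, 5.29% were higher and 9.56% lower in odor, and 5.83% and 9.86% in vehicle, with a median of 0.14 in each. Pde1c, a phosphodiesterase of the cilia, was higher by 1.10 ± 0.18 and 0.94 ± 0.18 (adjusted p = 0.0002 and 0.000945), and Pde4a by 0.82 ± 0.18 and 0.68 ± 0.18 (adjusted p = 0.00268 and 0.0123). Without vehicle replicate 2 or 4, Pde4a in vehicle stood at 0.66 or 0.62 and no longer passed. The gene that was lower, the receptor kinase gene Grk3, averaged under the background floor in both fractions. Gnal, the olfactory G protein subunit, did not pass (0.062 and 0.10, adjusted p = 0.844 and 0.719). Like Omp, it stood near the highest value of the arrays (19.12 in odor GFP+ and 19.06 in odor GFP- samples). Of 10 genes of receptor choice, among them Lhx2, Ldb1, Ebf1 and Kdm1a, 0 passed in either treatment by limma. Over all probe sets, 14.9% passed in odor and 15.7% in vehicle, in either direction. At an unadjusted p under 0.05, Ldb1 was lower in odor (-0.33) and Ebf1 higher in vehicle (0.36). The share of all probe sets at that level was not counted, so no result about these genes is drawn from it. The dorsal markers Acsm4 and Nqo1 did not pass either (0.13 and -0.019 in odor, 0.35 and 0.087 in vehicle). Ncam2, a marker of the ventral zone, was higher in odor (0.54 ± 0.17, adjusted p = 0.0414) and did not pass in vehicle (0.47 ± 0.17, adjusted p = 0.0752); leaving out any 1 odor pool, at 0.50 to 0.61, or vehicle replicate 1 or 2 ended the odor call. So did quantile normalization over all arrays, the pool as a fixed term, only the odor arrays and values raised to the floor (adjusted p = 0.0509 to 0.0567).

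Odor against vehicle gave no difference past the threshold for any of the 6 receptors. In GFP+ cells 0 of 6 passed, where 0.00901% of all probe sets did, and in GFP- cells 0 of 6 passed, where 0% did. The odor and vehicle arrays of every member overlapped in both fractions, where 1.01% of all probe sets were higher and 1% lower without overlap in GFP+ cells, and 0.941% and 0.833% in GFP- cells. In GFP+ cells the log2 difference, odor minus vehicle, was -0.26 for Taar2 (95% interval -0.94 to 0.41), 0.12 for Taar3 (-1.12 to 1.36) and -0.48 for Taar4 (-1.17 to 0.21). It was -0.10 for Taar6 (-0.86 to 0.65) and -0.59 for Taar9 (-1.65 to 0.47). These intervals leave room for changes of about 1 log2 unit, so equal levels were not shown.

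Among the 6 receptors in GFP+ cells, the dim Taar5 signal had the lowest unadjusted p. It averaged 4.24 ± 0.56 in odor GFP+ and 5.13 ± 0.29 in vehicle GFP+ samples (SD, n = 4), a difference of -0.89 (95% interval -1.40 to -0.39) with an adjusted p of 1.00. It reached an unadjusted p under 0.05, as did 3.91% of all probe sets in this comparison. In GFP- cells, Taar4 averaged 6.65 ± 0.13 in odor and 7.37 ± 0.68 in vehicle samples, a difference of -0.72 (-1.41 to -0.029; adjusted p = 1.00). This difference reached an unadjusted p under 0.05, as did 2.46% of all probe sets, and 2 of the 4 odor arrays lay under the background floor. The other 5 members ranged from -0.22 to -0.11 in GFP- cells.

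The difference between the fractions did not change with odor for any member past the threshold (0 of 6, with 0.00901% of all probe sets called). The change, odor minus vehicle, was -0.096 for Taar2, 0.29 for Taar3, 0.24 for Taar4, 0.11 for Taar6 and -0.44 for Taar9. For Taar5 it was -0.78 (95% interval -1.49 to -0.066; adjusted p = 1.00), a change that reached an unadjusted p under 0.05, as did 2.93% of all probe sets. So the Taar5 call in vehicle and its absence in odor were not shown to differ after adjustment.

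**Figure D5:**
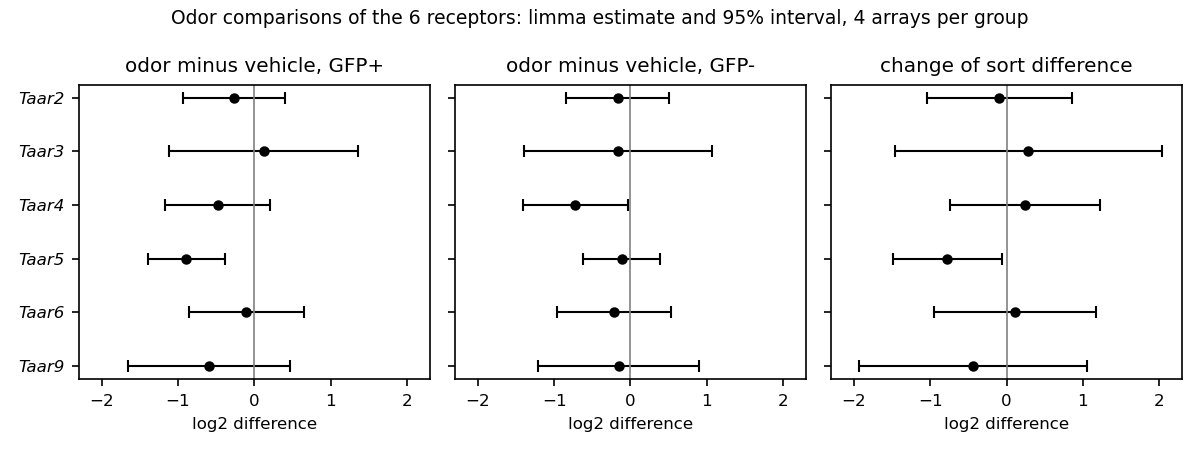
Log2 difference, odor minus vehicle, with its 95% interval (x axis) for each receptor in GFP+ cells, in GFP- cells, and for the change of the difference between the fractions. All intervals include 0 except those of the dim Taar5 in GFP+ cells and for the change, and of Taar4 in GFP- cells, and none passed after adjustment.

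Within the groups the receptors varied together. After subtracting group means, all 15 pairs of members had a positive Pearson r over the 16 arrays, from 0.19 (Taar2 with Taar3) to 0.80 (Taar6 with Taar9), with a median of 0.52. The arrays of a pool share their mice, and all genes share the array, so this is a description. Pairs of other genes were not counted, so such joint variation was not shown to be particular to these 6 receptors. The pairs with Taar5 rest on signals under background. Replicate 4 was the lowest array for 5 of 6 members in odor GFP+, 6 of 6 in odor GFP-, 3 of 6 in vehicle GFP+ and 5 of 6 in vehicle GFP- samples. The highest array was replicate 1 for 3, 4, 4 and 2 members in the same order of groups. It was replicate 2 for 3, 2, 1 and 4 members. The same count over all probe sets was not made, so neither pattern was shown to be particular to these receptors. Replicate 4 also had the lowest mean odorant receptor signal in odor GFP+ (7.999), odor GFP- (7.70) and vehicle GFP- samples (7.59), but not in vehicle GFP+ samples (8.13). Acsm4 and Nqo1 were lowest in replicate 4 of the odor groups (13.20 and 15.15 in odor GFP+, 13.29 and 15.38 in odor GFP-) and not of the vehicle groups. Replicate 1 of all 4 groups had the highest mean odorant receptor signal (odor GFP+ 8.37, odor GFP- 8.17, vehicle GFP+ 8.35, vehicle GFP- 8.39). Acsm4, Nqo1, Omp and the mean of the mature neuron markers were also highest there. The immune marker mean was highest in replicate 4 of all 4 groups (odor GFP+ 5.46, odor GFP- 13.39, vehicle GFP+ 5.43, vehicle GFP- 13.97). On every GFP+ array this mean lay under the background floor, so its order there ranks signals under background. S100a5 was highest in replicate 4 of both odor groups (16.98 in GFP+, 15.23 in GFP-). It was lowest in replicate 4 of both vehicle groups (16.11 in GFP+, 14.54 in GFP-). The part of these measures in the receptor signals was not tested. The same deviations followed the mean odorant receptor signal at r = 0.91 for Taar3, 0.81 for Taar9, 0.70 for Taar6 and 0.64 for Taar4, and at 0.31 for Taar5 and 0.23 for Taar2. They followed the immune marker mean, which lay under the floor in GFP+ samples, at r between -0.74 (Taar4) and -0.095 (Taar5). That mean varied most in vehicle GFP- samples (SD 1.03, against 0.17 in odor GFP+, 0.30 in odor GFP- and 0.26 in vehicle GFP+). The vehicle GFP- arrays therefore weigh most in these r. Other measures gave r of like size, so these means do not stand alone. Examples were Taar3 with the mature neuron marker mean (0.85), Taar6 with Acsm4 (0.74) and Taar2 with the sustentacular marker mean (0.57).

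Across the 16 arrays, the probe sets most like a member were mostly odorant receptors where the fractions differed. Over 9180 probe sets with 1 symbol and a mean above the mean background floor (9181 for Taar5), the highest Pearson r with Taar4 were those of Olfr1104, Olfr1034 and Olfr1036 (0.974, 0.974 and 0.973). Those with Taar9 were Olfr1009, Olfr1034 and Olfr160 (0.977, 0.972 and 0.968). For Taar2 they were Olfr672, Cdh1 and Olfr1019 (0.970, 0.968 and 0.964), where Cdh1 encodes the epithelial adhesion protein E-cadherin. For Taar5 they were Olfr961, Dusp3 and Olfr979 (0.918, 0.913 and 0.897), with Taar5 itself under the floor. Taar3 was most like Lpcat4, Gm7102 and Smpd1 (0.934, 0.931 and 0.926), and Taar6 was most like Nkiras2, Padi2 and Dpysl5 (0.864, 0.773 and 0.755). The values of Taar4 and Taar9 correlated at 0.95, and those of Taar2 and Taar4 at -0.83, over the same arrays. These correlations include the difference between the fractions, and they are given as a description. After subtracting group means, r with the first probe set named was 0.74 for Taar4, 0.88 for Taar9, 0.70 for Taar2 and 0.58 for Taar5. For Taar3 and Taar6 it was 0.90 each. Odorant receptors made up 391 of the 1175 higher and 235 of the 2124 lower calls in odor. Their share among the probe sets compared here was not counted.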

How the data were processed

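RNA of sorted cells (50 to 100 ng, per the labels' protocols) was measured on 16 arrays. The authors deposited log2 signals per probe set; the submitters' processing notes name Affymetrix Expression Console. How probes were summarised, and the array's build, is not given in the sources used. Of 28846 probe sets, 6640 controls were left out. The platform annotation named 19572 of the 22206 tested, and all matched GRCm38.p6 by Entrez identifier. The highest of 23 background bins was each array's floor (6.16 to 7.33); the number of arrays limits precision.

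Groups came from titles. limma 3.58.1 in R 4.3.3 fitted 4 group means over 16 arrays, tested on simulated data. Differences are odor minus vehicle and GFP+ minus GFP-. Members and lists were chosen with earlier results of these data known. Named were the members, S100a5, Omp, flanking genes and the 3 probe sets most like each member. Of each list, up to 3 that passed and 1 that did not were named, in part. Other names (Lhx2, Ldb1, Ebf1, Kdm1a, Nqo1, Taar8a) were chosen after their values were seen. By the labels, both fractions of a pool come from shared mice, and their deviations correlated at 0.0136 to 0.425 (consensus 0.171). Alternatives were normalizations, filters, array weights, blocks and leaving out each pool. Plots used matplotlib 3.10.9. Nothing says whether pools differ beyond their mice. The p-values of the main fit measure the spread between arrays of a group, each from its own pool. Only the pool blocks use the pairing of the fractions.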

Additional observations from a re-analysis of the deposited data

Results flagged for a closer look

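Of 24 sets of 4 arrays (6 receptors in 4 groups), 2 held an array far from the other 3, and chance gives about 1 in 20. Taar4 stood at 10.80 in vehicle GFP+ replicate 2, above 10.16 to 10.25 in the other replicates, with a gap of 0.847 of the whole range. Taar5 stood at 3.20 in odor GFP- replicate 4, below 3.62 to 3.64 in the others (0.958 of the range), with all 4 arrays under the background floor. Taar4 without vehicle replicate 2 and Taar5 without odor replicate 4 kept the direction of their differences between the fractions.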

How the results depend on the processing

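Of 589 results of the 6 receptors under alternatives, 548 kept direction and call, 13 gained a call and 28 changed sign; 1 of these, Taar5 in vehicle with floor-raised values (adjusted p = 0.711), also lost its call. The calls of Taar2, Taar4 and Taar9 between the fractions held under every alternative run. Taar3 in odor also passed with centred arrays (1.94), array weights (1.73), only the odor arrays (adjusted p = 0.0373), values raised to the floor (1.56) and without vehicle replicate 1 (adjusted p = 0.0445), and in vehicle with centred arrays (1.66). Taar5 in odor also passed with centred arrays (1.06), array weights (0.72) and the lowest 20% of probe sets left out (adjusted p = 0.0452). Members higher in odor were then 4 with centred arrays, array weights or a pool block, random or fixed (2 to 3 without 1 pool).

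With centred arrays the median difference over all probe sets was 0.49 in odor and 0.50 in vehicle, against 0.14. Higher and lower calls, 1175 and 2124 in odor and 1295 and 2189 in vehicle, became 8534 and 1724, and 8986 and 1750 (10258 and 10736 in all). Higher calls were 1855 and 1972 with quantile normalization and 702 to 1192 and 741 to 1254 without 1 pool. Floor-raised values left 1916 and 2190 calls, of which 1095 and 1262 were lower. Probe sets called for odor in GFP+ cells were 2, and 5 with the replicate block (the replicate number, which the labels do not tie across treatments; 7 of 8 odor arrays correlated best with their own number), 1 with only the arrays compared and 7 with floor-raised values. In GFP- cells 0 were called, and 1 with the trended prior, either quantile normalization, the lowest 40% left out, array weights, the replicate block or floor-raised values. For the change with odor 2 were called, and 0 to 1 without 1 pool. The blocks changed no other call of a member. The causes were not tested.

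Signs changed between the fractions in odor for Taar6 (0.080), Stx7 (0.20) and Nqo1 (0.33) with centred arrays, Grk3 with floor-raised values (0.015) and Gnal with quantile normalization (0), and in vehicle for Taar5 and Taar8a with floor-raised values (-0.098 each) and Stx7 with quantile normalization or array weights (-0.017, -0.047). Floor-raised values also turned Taar5 for odor in GFP+ cells (0.27), in GFP- cells (0.16) and for the change with odor (0.11), and Taar2 for that change (0.0039). Without 1 pool, differences spanned 0 for Nqo1 in odor (-0.079 to 0.049), and in vehicle for Omp (-0.042 to 0.055) and Stx7 (-0.088 to 0.092). For odor in GFP+ cells they did for Taar2 (-0.48 to 0.061), Taar3 (-0.25 to 0.46) and Taar6 (-0.27 to 0.075), and in GFP- cells for Taar2 (-0.34 to 0.0031), Taar3 (-0.64 to 0.37), Taar6 (-0.51 to 0.011) and Taar9 (-0.69 to 0.13). For the change they did for Taar2 (-0.32 to 0.15), Taar3 (-0.15 to 0.65), Taar4 (-0.068 to 0.53), Taar6 (-0.13 to 0.30) and Taar9 (-0.73 to 0.070). Taar7b in vehicle missed the threshold with the trended prior (adjusted p = 0.055) and Taar7f there with centred arrays (adjusted p = 0.061). Taar5 lay under background on all arrays, which limits every value of it.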
